A study of Homo sapiens with 6 samples.

Results

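The 47 genes described here encode enzymes and core subunits that modify histones or DNA or move nucleosomes, and most of them have long transcripts. They were chosen by name and function, as methyltransferases, acetyltransferases, demethylases and remodelers, with earlier results of these data known. Each symbol was matched to 1 of the 61552 Ensembl gene identifiers counted in the study. Of these 47 genes, 46 were among the 17084 genes that passed the filter on low counts and were tested. KAT6B was listed at 0 counts in every library. The comparison was made in MDA-MB-231 cells, an established mesenchymal-like line of triple-negative breast cancer, and every sample came from this 1 line. Cells received 10 μM VNLG-152R, a retinamide studied as a degrader of the MNK1/2 kinases, or its vehicle DMSO, and RNA was taken after 24 h. Each group had 3 samples, with no genetic change in either. Neither the labels nor the methods say whether the 3 samples of a group were separate experiments, and the p-values therefore cover no more than the spread of these libraries, part of which may be technical.

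Chromatin modifiers set how tightly DNA is packed and which proteins can read it. Methylation of lysine 4 of histone H3 (H3K4) marks active promoters and enhancers, methylation of lysine 36 (H3K36) marks transcribed gene bodies, and methylation of lysine 27 by the Polycomb complex PRC2 marks silent genes. Acetyltransferases loosen chromatin at enhancers, demethylases take methyl groups off again, and DNMT and TET enzymes add methyl groups to DNA or start their removal. SWI/SNF, CHD and INO80-family remodelers use ATP to slide, evict or exchange nucleosomes. Many of these proteins are very large, and genes of these families are often mutated in cancers.

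The word long held for most of the genes. The longest annotated transcript had a median of 8.61 kb over the 46 tested genes, against 3.11 kb over all tested genes with an annotated length, and it ran from 2.77 kb for EED to 19.4 kb for KMT2D. In 18 tested members it was over 10 kb, while it was under 6 kb in 6, namely EED, EZH2, SUZ12, DNMT1, SMARCA4 and KDM6A. For EED this transcript is annotated as noncoding and for SMARCA2 it has only 4 exons, so their lengths are less sure. The same holds for EZH2 and NSD2, where 2512 of 3641 and 6420 of 8568 bases lie after the annotated coding sequence. It also holds for DNMT3A (6427 of 9501 bases), NSD3 (5947 of 10776) and TET3 (6003 of 11388). Levels compared per length, as FPKM (library-scaled counts per kilobase of the longest transcript), had a median of 9.46 over the tested members. DNMT1, which copies DNA methylation after replication, was the highest at 78.5 FPKM with VNLG-152R and 83.1 FPKM in vehicle controls. CHD4 was listed lowest at 1.13 FPKM with VNLG-152R and 1.39 FPKM in vehicle controls. An unnamed gene on the same strand covers 87.6% of its longest transcript, so this level and rank are uncertain.

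Depth was 69923839 to 82151816 counts in genes with VNLG-152R and 60122936 to 68583224 in vehicle controls, so the treated libraries were all the deeper ones. Of the markers of the line, VIM, CD44, EGFR, AXL, CAV1 and FOSL1 all stood at 217 CPM or more, with VIM (edgeR log2 fold change −0.39, adjusted p = 0.0472) and CAV1 (−0.60, adjusted p = 0.00480) lower after VNLG-152R. Among receptor and luminal genes, ESR1, PGR and CDH1 were at most 0.698 CPM in any library and FOXA1, GATA3 and EPCAM lay between 1.30 and 15.7 CPM, while ERBB2 (84.3 to 118 CPM) and KRT8 (638 to 881 CPM) were present. Of 4 fibroblast markers, DCN, LUM and PDGFRA were at most 0.0986 CPM, and COL1A1 stood at 15.1 to 18.4 CPM with VNLG-152R and 16.9 to 17.8 CPM in vehicle controls. All 3 leukocyte markers (PTPRC, CD3E, CD68) were at most 0.177 CPM. A bulk library cannot tell fewer expressing cells from less RNA per cell. Differences between the groups are given as log2 fold changes of VNLG-152R over vehicle control, with levels as CPM, counts scaled to library size with TMM factors, and a gene was called changed at an adjusted p under 0.05 by the edgeR quasi-likelihood test over all tested genes.

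The starts of KMT2A, KMT2C and EP400, 3 of the 4 members that rose (CHD6 is the other), are shown here, with that of EZH2 beside them as the lowest member of the PRC2 group. Each line holds the 250 bases before the RefSeq start site on GRCh38.p14, with capitals for GC boxes (GGGCGG) and CCAAT boxes (CCAAT) on either strand. The windows lie at chr11:118436242-118436491 for KMT2A, chr7:152436004-152436253 for KMT2C, chr12:131949692-131949941 for EP400 and chr7:148884292-148884541 for EZH2, where KMT2A and EP400 are on the plus strand and KMT2C and EZH2 on the minus strand.
KMT2A: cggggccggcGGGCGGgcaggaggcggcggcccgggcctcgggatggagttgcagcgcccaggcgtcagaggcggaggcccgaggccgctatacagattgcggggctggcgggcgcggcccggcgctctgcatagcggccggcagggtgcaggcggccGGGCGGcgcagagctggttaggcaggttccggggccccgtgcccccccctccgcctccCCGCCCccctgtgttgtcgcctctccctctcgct
KMT2C: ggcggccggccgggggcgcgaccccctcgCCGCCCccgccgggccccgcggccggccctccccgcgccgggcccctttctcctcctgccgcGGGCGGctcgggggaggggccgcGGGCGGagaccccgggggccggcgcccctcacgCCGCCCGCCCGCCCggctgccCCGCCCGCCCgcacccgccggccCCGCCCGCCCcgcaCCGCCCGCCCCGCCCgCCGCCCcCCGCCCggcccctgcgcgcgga
EP400: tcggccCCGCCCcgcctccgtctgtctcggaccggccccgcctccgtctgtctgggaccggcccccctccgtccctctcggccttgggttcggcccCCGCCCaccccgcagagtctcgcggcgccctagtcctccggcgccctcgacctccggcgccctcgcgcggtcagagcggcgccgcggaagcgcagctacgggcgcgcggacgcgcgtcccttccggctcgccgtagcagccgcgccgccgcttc
EZH2: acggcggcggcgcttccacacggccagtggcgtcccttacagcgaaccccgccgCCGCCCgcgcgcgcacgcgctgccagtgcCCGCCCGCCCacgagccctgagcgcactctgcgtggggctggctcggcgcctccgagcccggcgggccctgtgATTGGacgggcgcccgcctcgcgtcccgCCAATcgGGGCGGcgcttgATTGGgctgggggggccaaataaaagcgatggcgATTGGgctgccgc
All of these windows were rich in CpG, with 31 CpG pairs in KMT2A, 48 in KMT2C, 44 in EP400 and 38 in EZH2. GC boxes, counted where they overlap, numbered 3 in KMT2A, 15 in KMT2C, 2 in EP400 and 4 in EZH2. Only the EZH2 window of these held CCAAT boxes, with 4, and no window held the TATA box letters TATAAA. Over the 38 members with a RefSeq window, 26 (68.4%) held a GC box, against 42.6% of all 35116 windows of the same length, which include noncoding genes. A CCAAT box stood in 9 of the 38 (23.7%), against 32.0% of all windows, and TATAAA stood in 0 of the 38, against 10.7% of all. These letters describe the windows and do not show that a factor binds there.

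After VNLG-152R, 4 of the 46 tested members rose and 0 fell. The 4 were KMT2A and KMT2C, which methylate H3K4, EP400, the ATPase of the TIP60 acetyltransferase complex, and CHD6, a chromodomain remodeler, and each rose by less than 1.5-fold. They make up 8.70% of the tested members, beside 5.19% of all tested genes called in either direction, 3.76% called higher and 1.43% called lower. At an unadjusted p under 0.05 the counts were 16 higher and 1 lower, where 12.8% of all tested genes were higher and 9.76% lower. Limma-voom called 4 members (4.83% of all tested genes) and DESeq2 called 11 (8.72% of all), all of them higher. The median log2 fold change of the members was 0.15, against −0.00 over all tested genes, and 36 members (78.3%) had a value above 0, as 49.6% of all tested genes had. In 20 members (43.5%) every VNLG-152R library lay above every vehicle control library, as it did in 15.1% of all tested genes, and in 1 member, EED, every VNLG-152R library lay below, as in 13.4% of all. For 39 of the 46 tested members the 95% interval of the difference stayed within 1.5-fold in either direction.

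**Figure D1:**
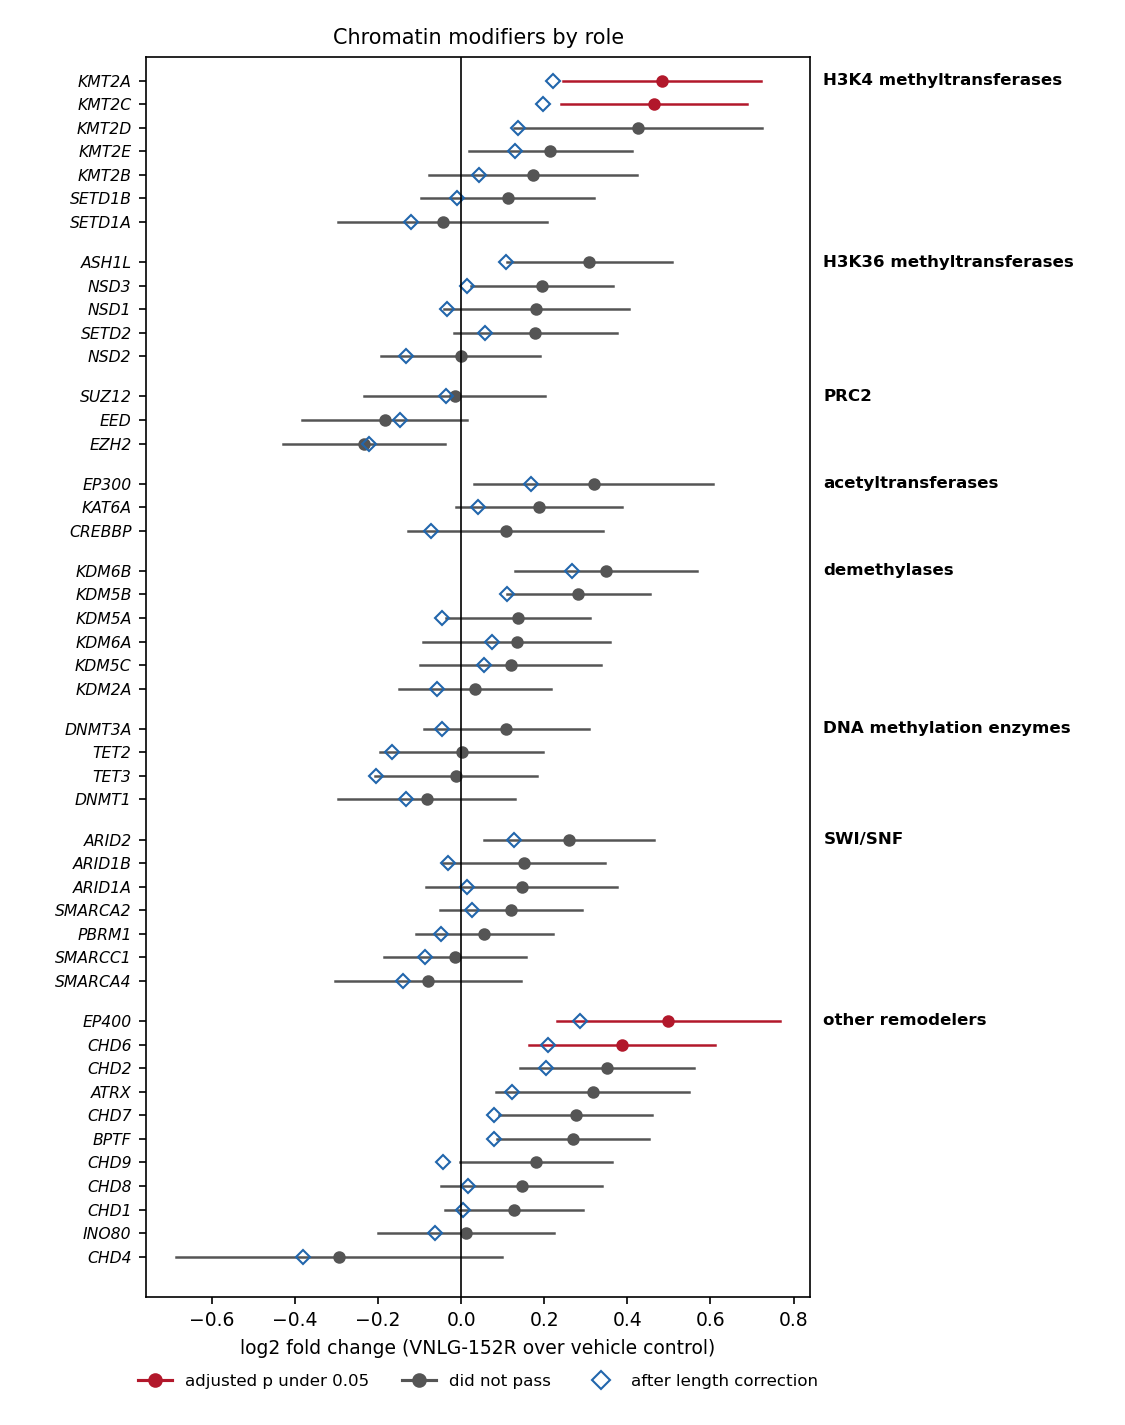
Log2 fold change of VNLG-152R over vehicle control (horizontal axis) for the 46 tested members, grouped by role. Circles with bars are the edgeR value and its 95% interval, red where the adjusted p was under 0.05, and open diamonds are the value after correction for transcript length. The 4 red genes lie between 0.39 and 0.50, and their diamonds lie between 0.20 and 0.29.

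Of the 7 H3K4 methyltransferases, 2 rose, 0 fell and 5 did not pass, and in 4 the groups did not overlap, all higher. Over all tested genes, 3.76% were called higher and 15.1% were apart and higher. KMT2A (ENSG00000118058, chromosome 11, 118436464 to 118526832, plus strand), the MLL gene that leukemia translocations break, had 154, 148 and 138 CPM in VNLG-152R replicates 1 to 3, against 90.8, 124 and 99.9 CPM in vehicle control replicates 1 to 3. Every treated library lay above every control, and control replicate 2 came closest. The log2 fold change was 0.48 ± 0.11 (SE, n = 3 each), a 1.40-fold higher level, with an edgeR adjusted p of 0.0272. An unnamed gene on the same strand covers 22.0% of the longest KMT2A transcript, and reads from that stretch cannot be given to either gene alone.

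KMT2C (ENSG00000055609, chromosome 7, 152134922 to 152436005, minus strand), which places single methyl groups at enhancers, had 105, 102 and 95.04 CPM with VNLG-152R, against 64.9, 84.7 and 69.4 CPM in vehicle controls. The groups did not overlap, and control replicate 1 was the lowest library. Its log2 fold change was 0.46 ± 0.10 (SE, n = 3 each) with an edgeR adjusted p of 0.0241. Near copies elsewhere in the genome, among them BAGE2, match 12.7% of its longest transcript at 95% identity or more, so its count is uncertain to that extent. KMT2D, its partner enzyme at enhancers and the member with the longest transcript, was singled out after its values were seen. It had 256, 221 and 210 CPM with VNLG-152R, against 133, 207 and 170 CPM in vehicle controls, without overlap, and its log2 fold change of 0.43 ± 0.14 (SE, n = 3 each) did not pass (edgeR adjusted p = 0.0935).

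SETD1A, which with SETD1B trimethylates H3K4 at promoters, had the lowest value of the group. It had 87.4, 65.9 and 77.6 CPM with VNLG-152R, against 68.4, 84.7 and 84.8 CPM in vehicle controls, so the groups overlapped, and its log2 fold change was −0.04 ± 0.12 (SE, n = 3 each; edgeR adjusted p = 0.858). KMT2B, KMT2E and SETD1B lay between at 0.17, 0.22 and 0.11, and only KMT2E of these had groups apart.

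**Figure D2:**
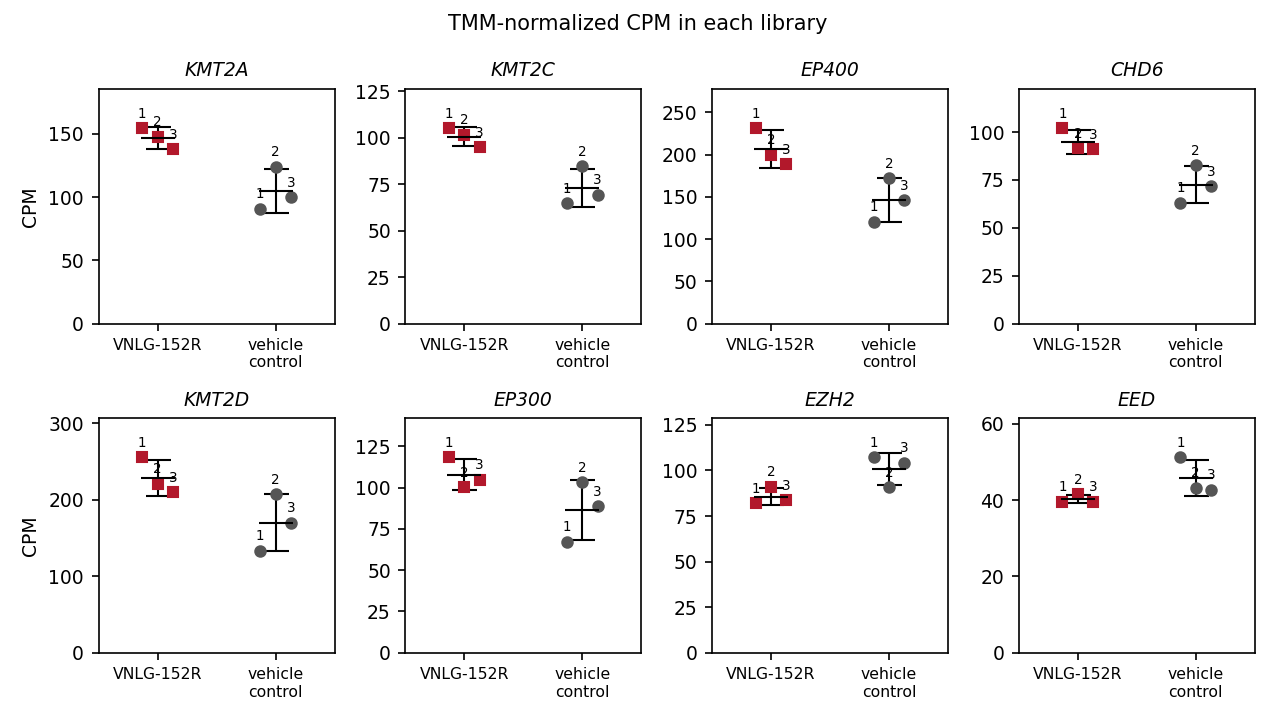
TMM-normalized CPM (vertical axes from 0) of 8 members in each library, VNLG-152R as red squares and vehicle control as grey circles, numbered by replicate. Bars are the mean and SD of 3 libraries. KMT2A, KMT2C, EP400, CHD6 and KMT2D have every VNLG-152R library above every control, EP300 and EZH2 overlap, and EED has every VNLG-152R library below.

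None of the 5 H3K36 methyltransferases passed the test, and 4 had values above 0. ASH1L, which counteracts Polycomb silencing, was the highest with 90.9, 92.6 and 88.1 CPM with VNLG-152R, against 68.2, 82.2 and 68.7 CPM in vehicle controls. Its groups did not overlap, and its log2 fold change was 0.31 ± 0.09 (SE, n = 3 each; edgeR adjusted p = 0.0716). NSD2, the dimethyltransferase that myeloma translocations activate, was the lowest, with 575, 517 and 544 CPM with VNLG-152R, against 507, 579 and 551 CPM in vehicle controls. Neither group stood above the other, and the 95% interval of its log2 fold change ran from −0.19 to 0.19. NSD1, NSD3 and SETD2, the last of which trimethylates H3K36 behind elongating polymerase, were at 0.18, 0.20 and 0.18.

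PRC2 was the only role with no value above 0, and its 3 genes have the shortest median transcript of the 8 roles, 3.64 kb. The lengths of EZH2 and EED are less sure, as given above. None of the 3 passed the test. EZH2, the catalytic subunit, had 82.1, 91.2 and 83.7 CPM with VNLG-152R, against 107, 90.7 and 104 CPM in vehicle controls. VNLG-152R replicate 2 and control replicate 2 overlapped, and the log2 fold change was −0.23 ± 0.09 (SE, n = 3 each; edgeR adjusted p = 0.147). SUZ12, the scaffold, had 84.0, 97.3 and 99.2 CPM with VNLG-152R, against 107, 89.3 and 87.5 CPM in vehicle controls, with a log2 fold change of −0.02 ± 0.10 (SE, n = 3 each). The pseudogenes EZH2P1 and SUZ12P1 match 7.99% and 14.3% of these transcripts. EED, which binds the H3K27 mark, was singled out after its values were seen. It had 39.6, 41.6 and 39.6 CPM with VNLG-152R, against 51.2, 43.2 and 42.8 CPM in vehicle controls, and did not pass at −0.18 ± 0.09 (SE, n = 3 each; edgeR adjusted p = 0.260).

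Among the acetyltransferases 0 of 3 tested genes passed, with all 3 values above 0. EP300, the p300 coactivator of enhancers, had 118, 100 and 105 CPM with VNLG-152R, against 67.3, 103 and 88.6 CPM in vehicle controls. Control replicate 2 lay above VNLG-152R replicate 2, and the log2 fold change was 0.32 ± 0.13 (SE, n = 3 each; edgeR adjusted p = 0.175). Its close relative CREBBP had 95.7, 80.3 and 90.5 CPM with VNLG-152R, against 69.9, 91.6 and 85.8 CPM in vehicle controls, a log2 fold change of 0.11 ± 0.11 (SE, n = 3 each). KAT6A, the MOZ enzyme, was at 0.19 with groups apart.

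The 6 demethylases all had values above 0 and none passed the test. KDM6B (JMJD3), which removes the PRC2 mark, was the highest with 35.6, 31.9 and 33.0 CPM with VNLG-152R, against 22.8, 29.4 and 26.8 CPM in vehicle controls. Its groups did not overlap, and its log2 fold change was 0.35 ± 0.10 (SE, n = 3 each; edgeR adjusted p = 0.0676). KDM2A, an H3K36 demethylase of CpG islands, was the lowest with 192, 170 and 183 CPM with VNLG-152R, against 167, 184 and 182 CPM in vehicle controls, a log2 fold change of 0.03 ± 0.08 (SE, n = 3 each). KDM5A, KDM5B and KDM5C, which remove H3K4 methylation, were at 0.14, 0.28 and 0.12, and KDM6A (UTX) was at 0.13.

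Enzymes of DNA methylation showed no called change, and none of the 4 had groups apart, where 28.5% of all tested genes were apart in either direction. DNMT3A, which sets new methylation, had 30.3, 28.0 and 27.0 CPM with VNLG-152R, against 23.9, 26.7 and 28.4 CPM in vehicle controls, a log2 fold change of 0.11 ± 0.09 (SE, n = 3 each). DNMT1 had 481, 377 and 416 CPM with VNLG-152R, against 433, 458 and 457 CPM in vehicle controls, a log2 fold change of −0.08 ± 0.10 (SE, n = 3 each). TET2 and TET3, which oxidize methylcytosine, were at 0.00 and −0.01 although their longest transcripts are 10.2 and 11.4 kb, the TET3 length being less sure. The 95% intervals of both stayed between −0.21 and 0.20.

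Of the 7 SWI/SNF genes none passed and 5 had values above 0. ARID2, a subunit of the PBAF form, was the highest with 39.9, 37.2 and 39.4 CPM with VNLG-152R, against 28.5, 35.4 and 33.5 CPM in vehicle controls, a log2 fold change of 0.26 ± 0.09 (SE, n = 3 each; edgeR adjusted p = 0.1304). SMARCA4 (BRG1), the main ATPase, was the lowest with 358, 267 and 311 CPM with VNLG-152R, against 327, 334 and 328 CPM in vehicle controls. Its treated libraries fell on both sides of the controls, and the log2 fold change was −0.08 ± 0.10 (SE, n = 3 each). ARID1A, ARID1B, SMARCA2, PBRM1 and SMARCC1 lay between −0.01 and 0.15.

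The 11 other remodelers held the other 2 calls, and in 7 of them the groups did not overlap, all higher. Over all tested genes, 3.76% were called higher and 15.1% were apart and higher. The median transcript of this role was 10.8 kb, and among all genes over 10 kb these shares were 21.9% and 49.7%. EP400 (ENSG00000183495, chromosome 12, 131949920 to 132081102, plus strand) had 231, 200 and 189 CPM with VNLG-152R, against 120, 172 and 146 CPM in vehicle controls. This was the largest log2 fold change of the tested members, 0.50 ± 0.12 (SE, n = 3 each), with an edgeR adjusted p of 0.0383. The pseudogene EP400P1 matches 7.97% of its transcript at 95% identity or more. CHD6 (ENSG00000124177, chromosome 20, 41402101 to 41618494, minus strand) had 102, 91.5 and 91.0 CPM with VNLG-152R, against 63.2, 82.6 and 71.7 CPM in vehicle controls. The groups did not overlap, and its log2 fold change of 0.39 ± 0.10 (SE, n = 3 each) passed with an edgeR adjusted p of 0.0496, just under the threshold.

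CHD4, the ATPase of the NuRD deacetylase complex, was the lowest of all tested members. It had 7.84, 7.53 and 7.27 CPM with VNLG-152R, against 12.9, 7.47 and 7.43 CPM in vehicle controls. Control replicate 1 alone stood apart, and the log2 fold change was −0.29 ± 0.18 (SE, n = 3 each; edgeR adjusted p = 0.363) with it and 0.02 without it. An unnamed gene on the same strand covers 87.6% of its longest transcript, so its level is uncertain. CHD2, ATRX, CHD7 and BPTF were at 0.35, 0.32, 0.28 and 0.27 and did not pass, and CHD9, CHD8, CHD1 and INO80 were at 0.18, 0.15, 0.13 and 0.01. Other genes on the same strand cover 16.8% of the longest CHD2 transcript. Near copies, among them BPTFP1, match 7.12% of the longest BPTF transcript.

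Log2 fold changes followed transcript length in these libraries, over the members and over all genes. Spearman's rho between the length of the longest transcript and the log2 fold change was 0.71 over the 46 tested members, 0.31 over 12929 protein-coding tested genes and 0.22 over all 16731 tested genes with a length. Genes share the libraries and are not independent replicates, so these are descriptions. In single libraries, the rho of length with a gene's deviation from its mean over all libraries was 0.20, −0.03 and 0.26 with VNLG-152R. In vehicle controls it was −0.20, −0.03 and −0.24, so replicate 2 of each group was alike in this. With GC content the rho over the members was −0.00, and it was −0.02 over protein-coding tested genes. These values describe the group difference and do not cover differences between single libraries. With GC added to the length correction described below, 9.73% of all tested genes were called, against 3.73% without it. No member under 10 kb was called, while over 10 kb 4 of 18 tested members (22.2%) rose, beside 131 of 597 (21.9%) of all tested genes of that length. The called share in the longest class was thus close to that of other genes as long. The median log2 fold change in that class was 0.27 for the members and 0.23 for all genes, and the groups were apart and higher in 13 of 18 members (72.2%), against 49.7% of all genes of that length. In the class from 8 to 10 kb it was 4 of 12 members (33.3%), against 34.0% of all genes.

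**Figure D3:**
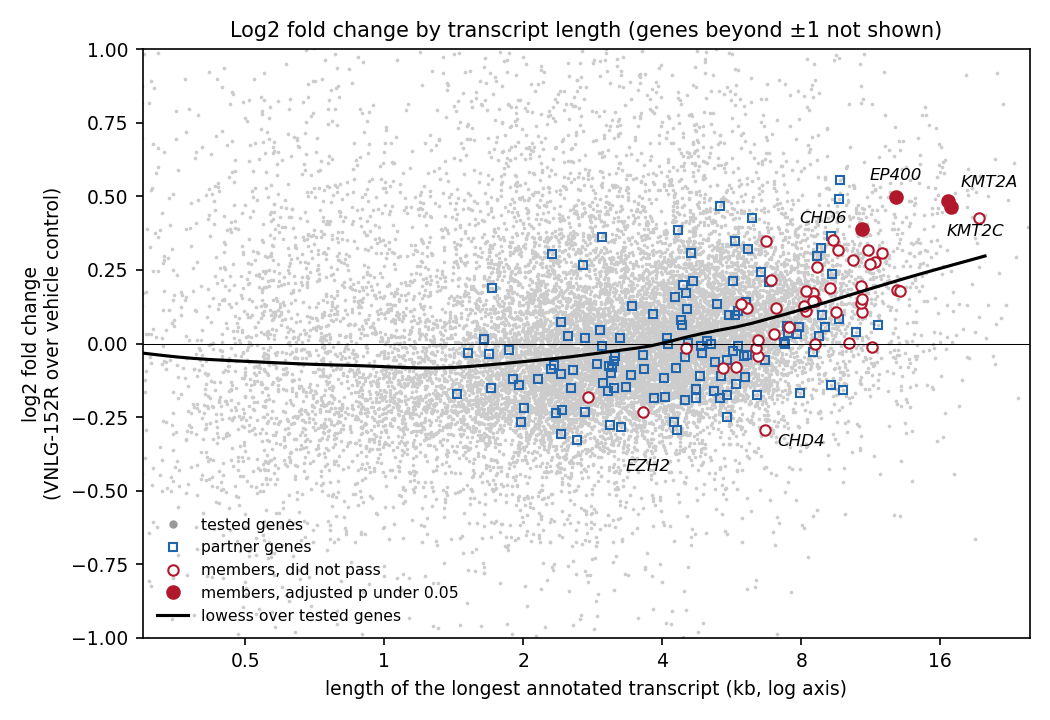
Log2 fold change of VNLG-152R over vehicle control (vertical axis) against the length of the longest annotated transcript (horizontal log axis, kb). Grey dots are tested genes, blue squares the partner genes, red circles the members (filled where the adjusted p was under 0.05) and the line a lowess curve over tested genes. The line climbs with length, and 25 members lie above it and 21 below.

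Measured from this curve, 25 tested members lay above and 21 below, with a median distance of 0.02 on the log2 scale. The curve itself had a median of 0.13 at the members' lengths, beside their median of 0.15. EP400 lay farthest above at 0.29 and CHD4 farthest below at −0.37. The CHD4 value is uncertain, since most of its transcript is shared with another gene and control replicate 1 alone stood apart. KDM6B lay 0.27 above the curve at only 6.71 kb, KMT2A 0.22 above, CHD6 0.21 above and KMT2C 0.20 above. TET3, TET2 and EZH2 lay below the curve by values of −0.20, −0.16 and −0.22, and the TET3 and EZH2 lengths are less sure.

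**Figure D4:**
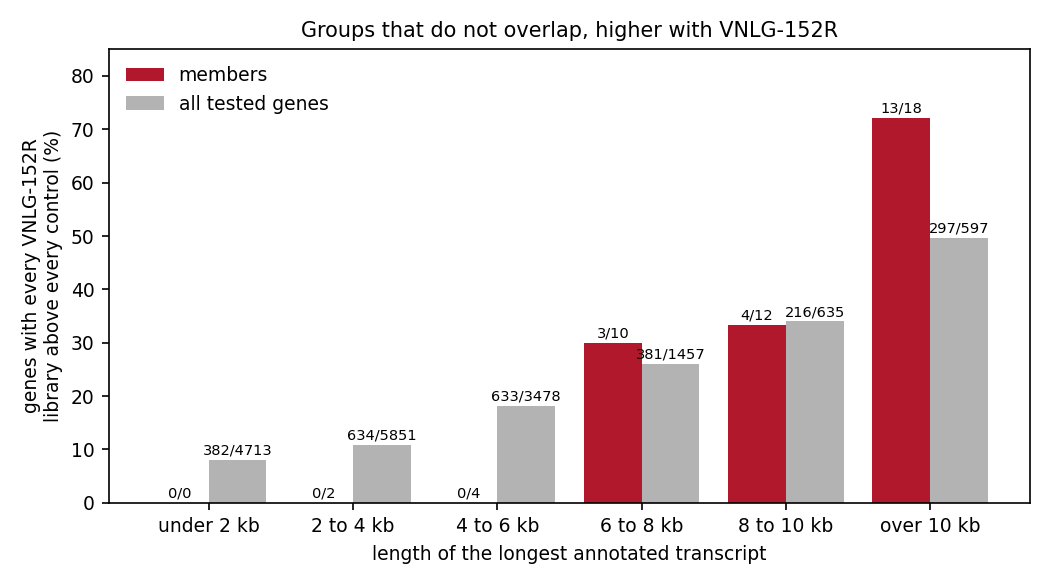
Percent of genes with every VNLG-152R library above every vehicle control library (vertical axis, from 0) by class of transcript length, for the members (red) and all tested genes (grey), with the counts above each bar. Both rise with length, from 8.11% of all genes under 2 kb to 49.7% over 10 kb, and the members stand at 72.2% in the longest class.

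When each library's deviation was corrected for length, 0 members were called, where 3.73% of all tested genes were. This correction takes out any difference between the groups that runs with length, a treatment effect included. Its fit therefore largely restates the distance from the curve. At an unadjusted p under 0.05 in that fit, 6 of the 46 members were higher and 2 lower, beside 11.4% and 9.61% of all tested genes, and the median of the members was 0.01. KMT2A stood at 0.22 (edgeR adjusted p = 0.170), KMT2C at 0.20 (0.191), EP400 at 0.29 (0.148) and CHD6 at 0.21 (0.202), and 9 members were apart and higher, against 13.4% of all tested genes. The share of counts in genes over 10 kb was 5.77%, 5.72% and 5.37% with VNLG-152R, against 4.38%, 5.03% and 4.52% in vehicle controls, and did not overlap. Read pairs in no annotated gene moved the same way, at 3.52%, 5.05% and 3.36% with VNLG-152R, against 3.17%, 2.63% and 3.05% in vehicle controls. The part of either in the members' values was not tested.

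Single libraries weighed on these counts. Vehicle control replicate 1 was the lowest of the 6 libraries in 32 of the 46 tested members (69.6%), against 22.3% of all tested genes, and VNLG-152R replicate 1 was the highest in 27 (58.7%), against 22.1%. The summed CPM of the members was 5782, 5195 and 5351 with VNLG-152R, against 4622, 5312 and 4995 in vehicle controls, so the sums overlapped. Without control replicate 1 the edgeR test called 1 member, ATRX, the X-linked remodeler that deposits histone H3.3 at repeats, in place of the 4, where 2.44% of all genes were called. Leaving out control replicate 2 gave 7 called members (3.53% of all genes) and leaving out control replicate 3 gave 0 (1.51%). Leaving out VNLG-152R replicate 1 gave 2 (5.42%), leaving out its replicate 2 gave 0 (3.07%) and leaving out its replicate 3 gave 0 (2.69%). The values themselves stayed above 0, with KMT2A between 0.39 and 0.62, KMT2C between 0.39 and 0.58, EP400 between 0.38 and 0.63 and CHD6 between 0.30 and 0.49 over these 6 fits.

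Ratios of related enzymes within a library do not depend on how the library was scaled, and 11 pairs could be formed. In 3 pairs every VNLG-152R library lay above every control, in 3 every one lay below, and 5 overlapped. These 6 of 11 stand beside 42.0% of all 1035 pairs of tested members whose ratios were apart in either direction. KMT2A to KMT2B had log2 ratios of 0.27, 0.55 and 0.43 with VNLG-152R, against 0.12, 0.25 and −0.08 in vehicle controls, a difference of 0.32. EP300 to CREBBP had 0.31, 0.32 and 0.21 with VNLG-152R, against −0.06, 0.17 and 0.05 in vehicle controls, a difference of 0.22. SMARCA2 to SMARCA4, the alternative ATPases of SWI/SNF, had −1.97, −1.63 and −1.85 with VNLG-152R, against −2.07, −1.98 and −2.02 in vehicle controls. The difference was 0.21, though VNLG-152R replicate 1 and control replicate 2 nearly met.

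In the other direction, KDM6A to KDM6B had log2 ratios of −0.94, −0.85 and −0.79 with VNLG-152R, against −0.60, −0.60 and −0.73 in vehicle controls, a difference of −0.21. SETD1A to SETD1B had 0.40, 0.25 and 0.42 with VNLG-152R, against 0.45, 0.55 and 0.54 in vehicle controls, a difference of −0.16. KDM5A to KDM5B had −0.88, −0.82 and −0.88 with VNLG-152R, against −0.61, −0.75 and −0.79 in vehicle controls, a difference of −0.15. In both of these pairs the nearest libraries of the groups lay close. The exact two-sided permutation test of 3 libraries against 3 gave p = 0.10 for each of the 6, the smallest it allows, and 0.183 after adjustment over the 11 pairs, so none passed. In 4 of these 6 pairs the difference ran with length, the longer transcript being the relatively higher one with VNLG-152R: KMT2A (16.6 kb) over KMT2B (8.47 kb), SMARCA2 (7.06 kb) over SMARCA4 (5.79 kb), SETD1B (8.19 kb) over SETD1A (6.45 kb) and KDM6B (6.71 kb) over KDM6A (5.92 kb). The SMARCA2 length is less sure, as its longest transcript has only 4 exons, so the order of that pair by length is too. In the remaining pairs the shorter was relatively higher, EP300 (9.59 kb) over CREBBP (10.8 kb) and KDM5B (10.3 kb) over KDM5A (10.8 kb). EZH2 to EED, from the same complex, overlapped with a difference of −0.05.

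**Figure D5:**
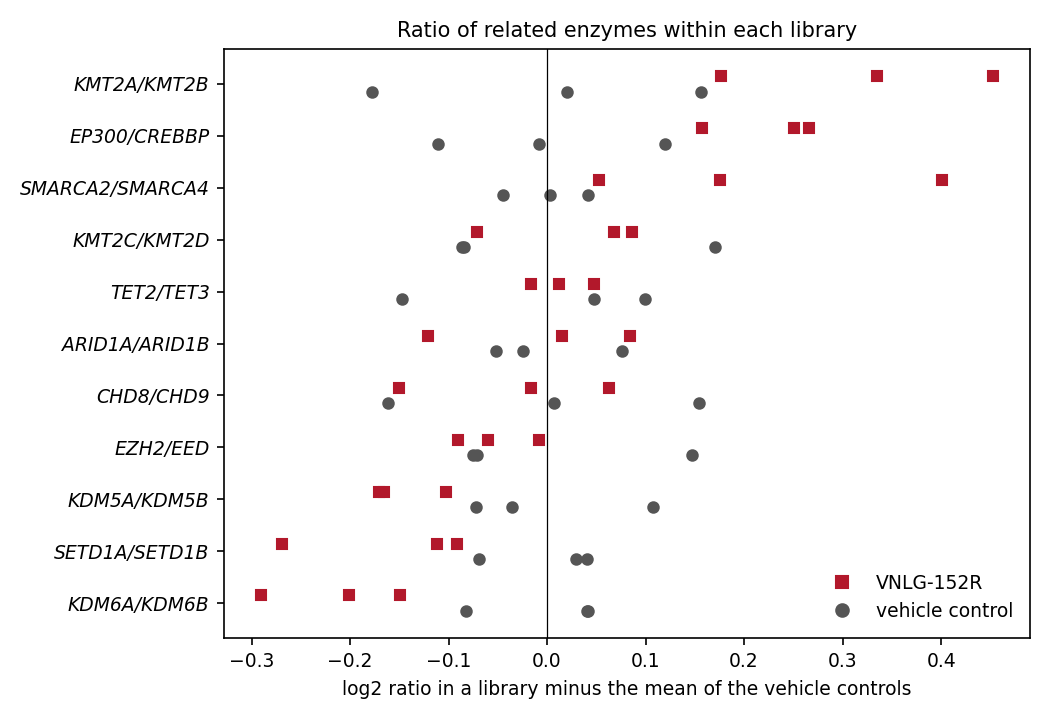
Log2 ratio of 2 related members within each library (horizontal axis, with the mean of the vehicle controls set to 0) for 11 pairs, VNLG-152R as red squares above and vehicle control as grey circles below. The top 3 pairs lie wholly to the right of their controls and the bottom 3 wholly to the left, with p = 0.10 each by the exact permutation test.

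Partner genes of the same complexes and families were set beside the members, as a list of 127 genes of which 124 were tested. The list had a median transcript of 4.47 kb, and its rho with length was 0.38. Of the 124, 3 rose and 0 fell (2.42%, beside the 5.19% of all tested genes), and the median log2 fold change was −0.03. At an unadjusted p under 0.05, 15 were higher and 15 lower, beside 12.8% and 9.76% of all tested genes. HDAC9, a class IIa histone deacetylase, had 27.9, 29.4 and 30.9 CPM with VNLG-152R, against 20.0, 21.0 and 19.1 CPM in vehicle controls, without overlap. Its log2 fold change of 0.55 ± 0.08 (SE, n = 3 each) had an edgeR adjusted p of 0.00286, and it stayed called after the length correction at 0.40 (edgeR adjusted p = 0.0205) and in each fit that left out 1 library.

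HDAC5, of the same class, had 61.5, 48.1 and 56.1 CPM with VNLG-152R, against 34.4, 44.5 and 41.0 CPM in vehicle controls, a log2 fold change of 0.47 ± 0.11 (SE, n = 3 each; edgeR adjusted p = 0.0368). JARID2, which guides PRC2 to its targets, had 77.9, 71.4 and 74.5 CPM with VNLG-152R, against 53.3, 64.1 and 58.3 CPM in vehicle controls, a log2 fold change of 0.35 ± 0.09 (SE, n = 3 each; edgeR adjusted p = 0.0446). All libraries of both genes were higher with VNLG-152R than any control. The remaining partner groups held no call, among them the 10 KMT2 core subunits such as WDR5 (median −0.04), the 11 other acetyltransferases (−0.09) and the 19 tested SWI/SNF subunits (−0.01).

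Zero counts need care in these tables. KAT6B, the MORF acetyltransferase, was listed at 0 in all 6 libraries, and so was SMARCB1, a core SWI/SNF subunit, while EHMT2 had 3 counts in control replicate 1 and 0 elsewhere. Since genes used by most cells stand at 0, a 0 here says only how the gene is listed.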

How the data were processed

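For each of the 6 samples the authors deposited unnormalized counts by Ensembl gene, made from strand-specific polyA libraries read from both ends. The submitters' processing notes name HISAT, HTSeq, DESeq and the build GRCh38, while the release of the annotation and the strand setting were not given in the sources used here. HTSeq's classes of unassigned pairs (no gene 2.63% to 5.05%, ambiguous 4.81% to 5.16%, not unique 7.81% to 8.12%) stayed out of the totals.

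Counts were tested in R 4.3.3 with edgeR 4.0.16 (TMM, filterByExpr, quasi-likelihood test of group, Benjamini-Hochberg over 17084 genes). The biological coefficient of variation was 0.105, with 4 residual degrees of freedom. A standard error is the absolute log2 fold change over the square root of F, and intervals use the t distribution at 12.43 degrees of freedom. Lengths, overlaps and gene coordinates come from GENCODE release 29 (GRCh38), which holds 58352 of the 61552 identifiers, promoter windows from RefSeq, and near copies from minimap2 2.31-r1302. For the length correction, the deviation of every library was smoothed on log2 length by lowess (span 0.3) and used as an offset. Log2 ratios used a pseudocount of 0.5. Alternatives were RLE or library-size scaling, other filters and thresholds, DESeq2 1.42.0, limma-voom (limma 3.58.1), replicate number as a block, thinning to the shallowest library (seed 1), length corrections, and leaving out each library. The correction for length and GC together was chosen after seeing the data. The fits were tested on simulated data.

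The members, the partner list, the pairs and the tests were chosen with earlier results of these data known. Values in every library are given for called members, for the highest and lowest member of each role, and for up to 3 called partner genes in each direction. Lists are described by counts and medians, with no set test. 1 marker gene is not reported here.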

Additional observations from a re-analysis of the deposited data

Results flagged for a closer look

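Read pairs that fell in no annotated gene, a class outside the comparisons of genes, were a larger share in every VNLG-152R library than in any vehicle control library. The lowest VNLG-152R library stood at 3.36%, against 3.17% in the highest vehicle control library, and the other two treated libraries stood at 3.52% and 5.05%. The library with 5.05%, VNLG-152R replicate 2, had 5195 CPM summed over the members, the lowest of its group. The part of this class in the members' values was not tested.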

How the results depend on the processing

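The 4 calls of members were close to the threshold and moved with many settings. The edgeR test called 0 members at an adjusted p under 0.01 (1.49% of all tested genes), 11 at 0.1 (10.1%), 10 with no filter (4.77%) and 0 to 7 when 1 library was left out (1.51% to 5.42%), and DESeq2 called 11 (8.72%). RLE scaling, library size only, a mean of at least 1 CPM, limma-voom and thinning gave 4, 5, 6, 4 and 3, with 5.20%, 4.88%, 6.97%, 4.83% and 5.34% of all genes. With the replicate number as a block 1 member (KMT2A) and 1 partner gene were called (2.32% of all genes). Deviations of libraries of the same number had correlations of −0.19, −0.17 and −0.11, and those of unlike numbers had 0.01 to 0.15. Libraries of the same number were thus not more alike than others by this measure. With deviations taken from means of 3 libraries the values are tied to each other, and a shared batch was not tested further.

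Length settings take out any difference between the groups that runs with length, and they lowered the members' median and the count apart and higher. Called members, their median and the counts apart and higher or lower were 0, 0.0143, 9 and 4 with the length correction, 0, 0.0144, 9 and 4 with the replicate block added, 0, 0.00915, 9 and 9 on the union of exons, and 2 (EP400, KDM6B), 0.0245, 8 and 6 with length and GC. Of all tested genes these fits called 3.73%, 1.53%, 3.61% and 9.73%, placed 13.4%, 13.4%, 13.5% and 16.3% apart and higher, and placed 13.3%, 13.3%, 13.5% and 16.5% apart and lower. In these 4 fits the partner genes had medians of −0.0591, −0.0612, −0.0664 and −0.0562 and 2, 0, 1 and 13 calls, 8 of the 13 lower. Members apart and lower were 0 with library size only, 2 with no filter and 1 to 3 without 1 library. Of all tested genes, 13.1%, 7.96% and 16.4% to 19.4% were apart and lower in these settings. Partner calls were 12 (3 lower) with DESeq2, 6 with no filter, 5 at a mean of 1 CPM and 1 to 3 (0 to 2 lower) without 1 library, with medians from −0.0405 to −0.0120.

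Over all tested members, 36 had a value above 0 in the main fit and 25 with the length correction, so more members reversed than are listed here. Of the members named with values in every library, only uncalled ones reversed. In the same 4 length fits CREBBP stood at −0.0716, −0.0697, −0.0617 and −0.0738, KDM2A at −0.0575, −0.0578, −0.0686 and −0.0529, and DNMT3A at −0.0458, −0.0437, −0.0200 and −0.0438. NSD2 stood at 0.00235 with library size only, 2.08e-05 with no filter and 0.00679 at a mean of 1 CPM. Without 1 library, the log2 fold change ran from −0.0520 to 0.0402 for NSD2, −0.141 to 0.0575 for SETD1A, −0.0680 to 0.0806 for SUZ12, −0.0118 to 0.0795 for KDM2A, −0.186 to 0.0210 for SMARCA4 and −0.430 to 0.0177 for CHD4. Causes were not tested. Every tested member had at least 450 counts in each library, though shared exons or near copies make some of these counts uncertain.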
